A study of Mus musculus with 4 samples.

Results

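Genes that carry or couple the pacemaker signal of the ureter, Kit, Kitl, Hcn2, Hcn3, Hcn4, Ano1, Gja1 and Gjc1, were followed in the ureter of mice with and without the microRNA genes miR-143 and miR-145. The 8 genes were chosen by name. Each was read from the deposited log2 expression values through the platform's gene symbols, with the brightest probe set standing for a gene. All 8 were found among 19296 genes, each with 1 probe set. RNA came from whole ureter of male mice of a 129Sv/C57BL6 mix. The 2 wild type mice (miR-143/145+/+) were 4.5 months old with normal kidneys. The 2 knockout mice (miR-143/145-/-) were 2.5 months old with hydronephrosis, in which urine is held back and the kidney swells. Each mouse gave 1 array, no agent was given per the labels, and genotype, age and kidney state cannot be told apart in any difference below.

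As background, the ureter moves urine by waves of contraction that begin near the renal pelvis and travel down the muscle coat. Kit, a receptor tyrosine kinase, and its ligand Kitl mark and maintain interstitial pacemaker cells in several muscular tubes. Ano1 is a calcium-activated chloride channel that gives such cells their depolarising current, and the HCN channels open on hyperpolarisation and set the pace of rhythmic cells. Connexins, among them connexin 43 from Gja1 and connexin 45 from Gjc1, form the gap junctions that carry current from cell to cell.

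The deleted genes were low on both knockout arrays. Mir145a read 8.28 and 8.42 in wild type against 4.60 and 5.02 in knockout, and Mir143 read 7.64 and 7.85 against 6.48 and 6.53. The background level was log2 6.58, which 95% of 1024 olfactory receptor genes did not exceed in their mean over the arrays. Both knockout readings of both genes lay below it, so the falls are bounds of at least 3.42-fold for Mir145a and at least 2.24-fold for Mir143 (limma, adjusted p = 0.00193 and 0.0148). Of the marker genes, 14 of 14 for smooth muscle and 20 of 20 for urothelium lay above background. So did 9 of 9 adipocyte and 14 of 15 kidney genes. Such counts take a gene as above background where the mean of at least 1 genotype exceeds it. By that rule 14227 of all 19296 genes lay above, so the counts cannot tell ureter from kidney or fat. The precision of a genotype mean is limited by its 2 mice.

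None of the 8 genes passed the test between the genotypes. Ano1 came nearest, 1.40-fold higher in knockout at an adjusted p of 0.0750, followed by Hcn4, at 0.780 of its wild type level, with an adjusted p of 0.116 (limma over all 19296 genes, threshold 0.05). Over all genes 2.38% passed, 1.90% as higher and 0.477% as lower. With the arrays centred on their medians, 309 genes passed as higher and 317 as lower, in place of 367 and 92. In direction, 3 members were higher in knockout and 5 lower. Their median log2 difference was -0.18, beside -0.02 for all genes tested. Over the 7 members above background it was -0.09, beside 0.03 for all genes above background. At an unadjusted p under 0.05, 1 member was higher and 2 were lower, while 26.5% of all genes met that mark, 12.7% as higher and 13.8% as lower. For 6 of the 8 members the genotypes did not overlap, 2 with knockout above and 4 with knockout below. Among all genes this held for 60%, 28% with knockout above and 32% with knockout below, so the members' share lay near the background. No member differed by as much as 1.5-fold. With the standard errors found here, a member would have needed a difference of 0.61 to 1.0 on the log2 scale to pass, and the members reached between 13.7% and 77.0% of the size each needed. That size holds for this fit of 2 mice per genotype, with the largest p that passed in it, and is no limit on true differences.

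**Figure D1:**
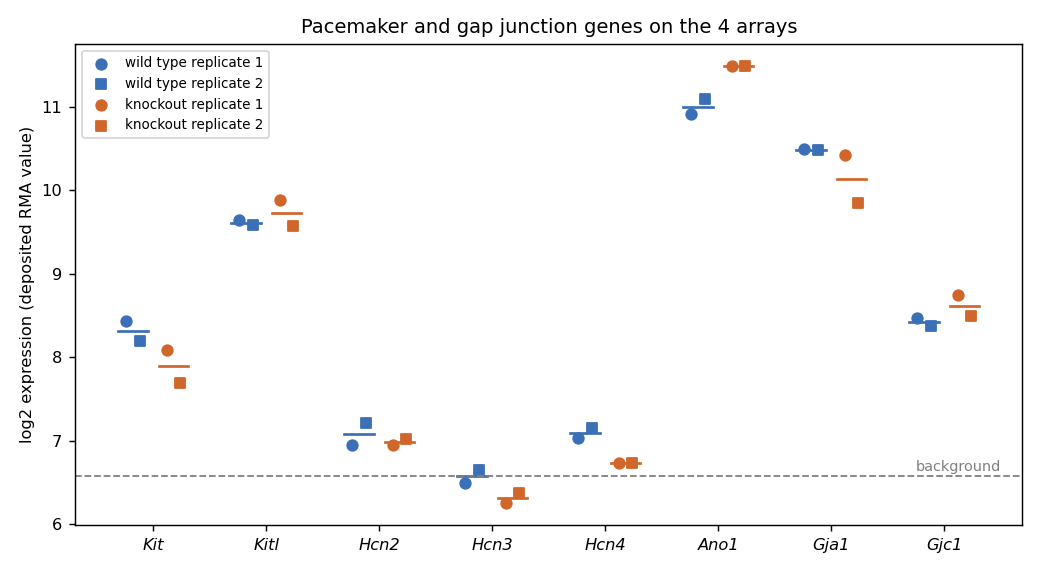
Deposited log2 expression value (vertical axis) of each of the 8 genes on the 4 arrays, wild type in blue and knockout in orange, with circles for replicate 1, squares for replicate 2, bars for the group means and a dashed line at the background level of 6.58. Ano1 sits between 10.91 and 11.09 in wild type and at 11.49 on both knockout arrays, while 3 of the 4 Hcn3 readings lie below the background line; heights of different genes are not comparable.

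Kit is the receptor of the interstitial pacemaker cells and also of mast cells and melanocytes. Its readings were 8.43 and 8.19 in wild type against 8.09 and 7.70 in knockout. Both knockout mice were lower than both wild type mice, by a gap of 0.11, which is smaller than the 0.39 between the knockout mice themselves. The difference was -0.42 (SE 0.16, 95% interval -0.81 to -0.03) and did not pass (limma, adjusted p = 0.164). It turned on single mice: without knockout replicate 1 it was -0.62, and without knockout replicate 2 it was -0.22. A fit with 1 knockout mouse takes a gene's own spread from the wild type mice alone. In whole tissue, fewer cells of a type and less RNA per cell cannot be told apart. The 250 bases before the start of Kit, Ano1 and Gja1 are shown because Ano1 had the largest difference and those of Kit and Gja1 depended on 1 mouse. They are RefSeq sequences of assembly GRCm38.p6, written along the gene's strand, with motif matches in capitals. For Kit the stretch is chr5:75574737-75574986 on the plus strand, and the capitals mark a GC box, GGGCGG, that begins 98 bases before the start. A second listed start of Kit has the window chr5:75574741-75574990, with the same box 102 bases before that start.

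Kit promoter: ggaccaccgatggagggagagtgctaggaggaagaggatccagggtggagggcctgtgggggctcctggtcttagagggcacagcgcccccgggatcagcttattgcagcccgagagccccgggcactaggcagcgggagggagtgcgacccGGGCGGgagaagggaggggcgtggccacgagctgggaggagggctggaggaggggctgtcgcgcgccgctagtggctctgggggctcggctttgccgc

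Kitl encodes stem cell factor, the ligand of Kit. It read 9.64 and 9.58 in wild type against 9.88 and 9.57 in knockout, so the genotypes overlapped. The difference was 0.11 (SE 0.14, 95% interval -0.22 to 0.44; limma, adjusted p = 0.638), and it turned to -0.043 without knockout replicate 1. A list of 38 genes around Kit signalling was read with the pair; 32 were tested, and 32 lay above background. Etv1, a transcription factor that Kit signalling stabilises in interstitial pacemaker cells of the gut, rose. It read 8.05 and 8.0 in wild type against 8.75 and 9.06 in knockout, a difference of 0.88 (SE 0.14, limma adjusted p = 0.0368). Etv1 was thus higher in both mice in which Kit read lower. Stat5a, a transcription factor activated downstream of cytokine and growth factor receptors, fell by 0.72 on the log2 scale (SE 0.13, limma adjusted p = 0.0499). Grb7, an adaptor that binds activated receptor kinases, differed by 0.65 (adjusted p = 0.0714). A further quantile normalization ended the calls of Etv1 (adjusted p = 0.0574) and Stat5a (0.0532). That of Stat5a was also lost with every probe set tested, with array weights and without knockout replicate 2 (adjusted p = 0.0881). Within the list 1 gene rose, 1 fell and 30 did not pass, and the median difference was 0.03.

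Markers of other cells that carry Kit were read beside it. Cpa3, a mast cell protease, read 8.56 and 8.27 in wild type against 8.26 and 7.90 in knockout. Tpsb2, a mast cell tryptase, read 7.75 and 7.67 against 7.60 and 7.30, and Hdc, the enzyme that makes histamine, read 6.94 and 7.23 against 6.68 and 6.66. On these 3, as for Kit, the knockout mice lay below the wild type mice, but Mcpt4, another mast cell protease, overlapped at 7.92 and 7.53 against 7.84 and 7.54. Of 15 mast cell genes tested, 13 were lower, 2 were higher and none passed (0 by limma, 4 down and 1 up at unadjusted p under 0.05). The list mean was 6.39 and 6.40 in wild type against 6.29 and 6.19 in knockout. Only 7 of the 15 lay above background, and the defining genes Fcer1a, Ms4a2 and Mcpt1 did not. Cma1, mast cell chymase, was read below background on both knockout arrays, a difference of at least 1.01-fold (limma, adjusted p = 0.0767). Gata2, which endothelium also expresses, was higher by 0.61 (limma, adjusted p = 0.0804). Of 10 endothelial genes 8 were lower in knockout, and the part of endothelium in the Gata2 values was not tested. Melanocyte genes were mostly dim, with Dct, Tyr and Tyrp1 below background and 7 of 8 lower; none passed (limma, 2 down and 0 up at unadjusted p under 0.05). Their list mean was 6.73 and 6.84 in wild type against 6.63 and 6.49 in knockout. Mlana differed by -0.40 (adjusted p = 0.115), and Slc45a2 was at least 1.05-fold lower, with both knockout readings under the background (adjusted p = 0.173). Over all genes tested, 10210 of 19296 were lower in knockout, and so were 6479 of the 14227 above background. Among the olfactory receptor genes, 629 of 1024 were lower. The part of mast cells or melanocytes in the Kit values was not tested.

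A list of 10 genes of PDGFRA-positive interstitial cells and telocytes had readings that lay the other way. Of the 10, 7 were higher in knockout and 1 passed the threshold as higher. The median difference of the list was 0.29. Kcnn3, a small-conductance calcium-activated potassium channel typical of these cells, read 8.05 and 7.90 in wild type against 8.73 and 8.89 in knockout. It rose 1.78-fold (SE 0.13 on the log2 scale, limma adjusted p = 0.0353), a call that a further quantile normalization ended (adjusted p = 0.0542). Pdgfra, the receptor that names the cells, read 10.41 and 10.47 against 10.90 and 10.99 and differed by 0.51 (limma, adjusted p = 0.0658). The list mean was 9.05 and 9.14 in wild type against 9.32 and 9.40 in knockout.

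**Figure D2:**
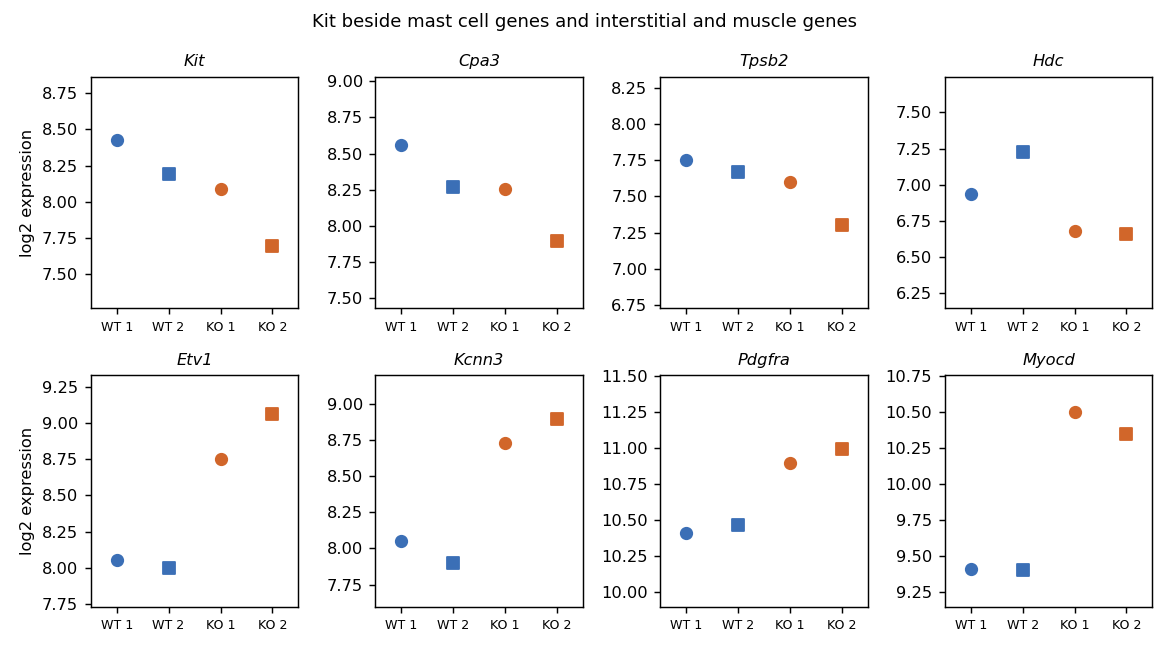
Log2 expression (vertical axis, the same span in each panel) on the 4 arrays for Kit, for the mast cell genes Cpa3, Tpsb2 and Hdc, and for Etv1, Kcnn3, Pdgfra and Myocd; circles are replicate 1 and squares replicate 2, wild type in blue and knockout in orange. Kit and the 3 mast cell genes read lower in both knockout mice, and the other 4 genes read higher in both. The 3 mast cell genes were chosen after their values were seen. Of the mast cell genes not shown, Mcpt4 overlapped between the genotypes and Gata2 was higher in knockout.

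The HCN genes were dim. Hcn4, the main pacemaker channel of the heart's sinus node, read 7.03 and 7.15 in wild type against 6.73 and 6.73 in knockout. The knockout mice lay 0.30 below the lower wild type mouse and differed from each other by 0.0028. The difference was -0.36 (SE 0.12, 95% interval -0.63 to -0.08) and did not pass (limma, adjusted p = 0.116). It ranged from -0.44 with the arrays centred on their medians to -0.25 with a further quantile normalization, and passed under none of the 14 settings tried (lowest adjusted p 0.0630). Hcn2, a faster channel of the same family, read 6.95 and 7.21 in wild type against 6.94 and 7.02 in knockout. Its genotypes overlapped, and the difference of -0.09 (SE 0.13, 95% interval -0.41 to 0.22; limma, adjusted p = 0.680) became 0.034 without wild type replicate 2. Hcn3, a subtype described in the pacemaker region of the renal pelvis, read 6.50 and 6.64 in wild type against 6.25 and 6.37 in knockout. Only 1 of its 4 readings was above background, both group means were below it, and no fold is given (limma, adjusted p = 0.225). With the 99th percentile of the olfactory receptor genes as the background level, 7.42, Hcn2 and Hcn4 lay below it too, and 5 members remained above.

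Dim readings differed between the arrays in ways that did not all run with genotype. The lower quartile of all probe sets was 6.36 and 6.45 in the wild type mice, against 6.26 and 6.27 in the knockout mice, while the array medians were 7.81 and 7.84 against 7.89 and 7.89. The mean of the 1024 olfactory receptor genes was 5.12 and 5.13 in wild type against 4.99 and 5.13 in knockout, so the genotypes overlapped. Gene by gene, 629 of them were lower in knockout and 395 higher. The genotypes lay apart with knockout below for 299 and with knockout above for 115. For the 69 of them above background, the median difference was -0.27. The part of these differences between arrays in the readings of Hcn3 and Hcn4 was not tested.

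Genes that act on HCN channels were listed with them, 20 in all, of which 19 were tested and 15 lay above background. None passed (0 by limma, 3 up and 2 down at unadjusted p under 0.05), and the median difference was -0.12. Mrvi1, which belongs to the same family as an HCN4 regulator and is a target of cGMP-dependent kinase in smooth muscle, read 9.26 and 9.18 in wild type against 9.88 and 9.65 in knockout (difference 0.54, limma adjusted p = 0.0701). Adcy2, one of the adenylyl cyclases that make the cAMP to which HCN channels respond, differed by 0.54 (adjusted p = 0.0737). Nedd4l, a ubiquitin ligase for ion channels, differed by 0.46 (adjusted p = 0.0756). All 3 were higher in both knockout mice.

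Ano1 was the member with the largest difference. It read 10.91 and 11.09 in wild type against 11.49 and 11.49 in knockout. The knockout readings lay 0.40 above the higher wild type reading and within 0.0018 of each other, while the wild type mice differed by 0.18. The difference was 0.49 (SE 0.12, 95% interval 0.20 to 0.77), or 1.40-fold, and it did not pass (limma, adjusted p = 0.0750), with 6.59% of all genes showing a smaller p. Leaving out each mouse in turn gave differences of 0.40 to 0.58, all positive, at adjusted p values of 0.105 to 0.230. For Ano1 the bases before the start are chr7:144738574-144738823, on the minus strand, and the capitals mark 4 GC boxes, which begin 109, 98, 55 and 17 bases before the start.

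Ano1 promoter: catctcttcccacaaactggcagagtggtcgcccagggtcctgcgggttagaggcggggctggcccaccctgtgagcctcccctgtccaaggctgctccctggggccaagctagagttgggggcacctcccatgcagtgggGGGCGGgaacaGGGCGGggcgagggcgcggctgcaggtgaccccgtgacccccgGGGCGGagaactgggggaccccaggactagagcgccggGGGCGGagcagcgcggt

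The genes with profiles most like that of Ano1 were found among 14226 other genes above background. The measure was the root mean square difference of log2 values over the 4 arrays, each gene centred on its own mean. Lrrn4cl was nearest at 0.014, followed by Pisd-ps2 at 0.014 and Tgfb1i1 at 0.015. Tgfb1i1, which encodes the focal adhesion protein Hic-5 of smooth muscle, read 9.95 and 10.13 in wild type against 10.52 and 10.56 in knockout. With 4 arrays, such a likeness describes these mice and no more.

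Other anoctamins, bestrophins and the transporters that load cells with chloride were listed with Ano1. Of 22 genes 21 were tested and 13 lay above background. None passed (0 by limma, 4 up and 1 down at unadjusted p under 0.05), and the median difference was 0.16, or 0.22 over those above background. Slc12a2, the cotransporter NKCC1 that raises chloride inside the cell and so sets the size of the Ano1 current, read 9.78 and 9.50 in wild type against 10.19 and 10.27 in knockout. Its difference was 0.59 (SE 0.14, limma adjusted p = 0.0668). Stk39, the kinase SPAK that activates NKCC1, differed by 0.54 (adjusted p = 0.0802), and the anoctamin Ano9 by 0.44 (adjusted p = 0.0920). All of Ano1, Slc12a2, Stk39 and Ano9 read higher in both knockout mice than in either wild type mouse. Ano6, a phospholipid scramblase, read 11.30 and 11.23 against 11.45 and 11.54, and Ano10 read 10.59 and 10.57 against 10.48 and 10.37.

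Urothelial and smooth muscle genes were mostly higher beside Ano1, as was the interstitial list above. The kidney list had a median difference of 0.74, but only knockout replicate 1 had a mean above both wild type mice. Its means were 6.71 and 7.43 in wild type against 8.58 and 6.84 in knockout. The genotypes lay apart for 3 of the 15 kidney genes, 1 with knockout above and 2 with knockout below. All 20 urothelial genes were higher in knockout, with a median difference of 0.65 and list means of 11.01 and 11.30 in wild type against 11.62 and 11.97 in knockout. Among them Cldn8, a tight junction protein, rose by 1.0 and Trp63, a factor of basal epithelial cells, by 0.83 (limma, adjusted p = 0.0386 and 0.0486); both calls ended with a further quantile normalization (adjusted p = 0.0604 and 0.0657). That of Trp63 was also lost with every probe set tested (adjusted p = 0.0547) and without knockout replicate 2 (0.0593). Of 14 smooth muscle genes 12 were higher, with a median of 0.27 and list means of 10.84 and 10.75 against 11.17 and 11.03. Myocd, the coactivator of smooth muscle genes, rose 2.01-fold and Itga8, an integrin of smooth muscle, 1.75-fold (limma, adjusted p = 0.0208 and 0.0319). A CArG box, the motif through which Myocd acts with serum response factor, was searched on both strands in the 250 bases before the start of the 6 members with a RefSeq promoter, Kit, Kitl, Hcn2, Hcn4, Ano1 and Gja1. It was found in none of them and in 1.47% of all 32851 windows of that length. At so low a share, none was likely among 6 windows, and other regions were not searched. Whether Myocd acts on these genes was not tested. The part of urothelium or muscle in the Ano1 values was not tested.

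**Figure D3:**
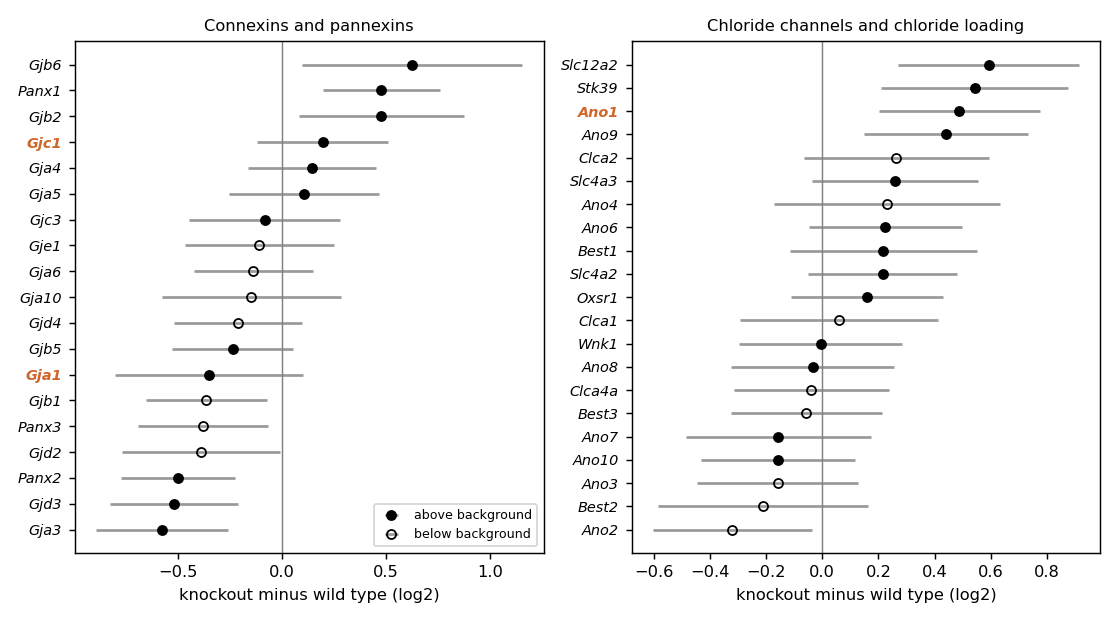
Difference of knockout minus wild type (horizontal axis, log2) with its 95% interval for each tested connexin and pannexin (left) and each tested chloride channel, chloride transporter or kinase of the list (right); filled circles lie above background in at least 1 genotype, open circles below, and members are in orange. Ano1 stands near the top of its list at 0.49, Gja1 lies at -0.35 and Gjc1 at 0.20.

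Gja1 encodes connexin 43. It read 10.49 and 10.48 in wild type against 10.42 and 9.84 in knockout. Knockout replicate 1 lay only 0.05 below the wild type mice, so the lower knockout mean came mostly from knockout replicate 2. The difference was -0.35 (SE 0.19, 95% interval -0.80 to 0.10; limma, adjusted p = 0.280). Without knockout replicate 1 it was -0.64, and without knockout replicate 2 it was -0.06. No other member moved as far when 1 mouse was left out. For Gja1 the bases before the start are chr10:56377050-56377299, on the plus strand, and the capitals mark an AP-1 site, TGAGTCA, that begins 19 bases before the start.

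Gja1 promoter: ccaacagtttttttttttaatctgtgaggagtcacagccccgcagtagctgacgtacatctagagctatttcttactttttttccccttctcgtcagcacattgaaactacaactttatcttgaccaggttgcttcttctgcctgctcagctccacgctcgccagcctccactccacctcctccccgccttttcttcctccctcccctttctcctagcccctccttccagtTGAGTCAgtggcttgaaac

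Over all 32851 windows of 250 bases, an AP-1 site (TGACTCA or TGAGTCA, both strands) was present in 4.46%, a GC box (GGGCGG, both strands) in 32.7% and a TATA box (TATAAA, both strands) in 12.4%. Of the 6 members, Gja1 held the AP-1 site and no GC box, the other 5 held a GC box, and Kitl held a TATA box 25 bases before the start. The windows of those 5 were 69.2% to 72.0% G and C bases, against 50.0% for Gja1 and a median of 52.4% over all windows. A match is a description of these letters.

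Knockout replicate 2 also had the lowest fat and endothelial readings. The adipocyte list mean was 12.94 and 12.82 in wild type, 12.59 in knockout replicate 1 and 12.08 in knockout replicate 2. All 9 adipocyte genes were lower and none passed (0 by limma, 7 down at unadjusted p under 0.05). Adipoq, the fat hormone adiponectin, differed by -0.73 (adjusted p = 0.0869) and Retn, resistin, by -0.65 (adjusted p = 0.0904). The endothelial list mean was 10.29 and 10.44 in wild type against 10.27 and 10.08 in knockout, and none of its 10 genes passed (0 by limma, 3 down at unadjusted p under 0.05). Cldn5, a tight junction protein of endothelium, differed by -0.73 (adjusted p = 0.0587), and Kdr, a receptor for vascular endothelial growth factor, by -0.55 (adjusted p = 0.104). Their part in the Gja1 values was not tested.

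Gjc1 encodes connexin 45, a connexin of low conductance found in pacemaker tissue. It read 8.47 and 8.37 in wild type against 8.74 and 8.49 in knockout. The gap between the genotypes was 0.019, less than the 0.25 between the knockout mice. The difference was 0.20 (SE 0.13, 95% interval -0.12 to 0.51; limma, adjusted p = 0.380), and it was 0.08 with a further quantile normalization, 0.07 without knockout replicate 1 and 0.32 without knockout replicate 2.

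**Figure D4:**
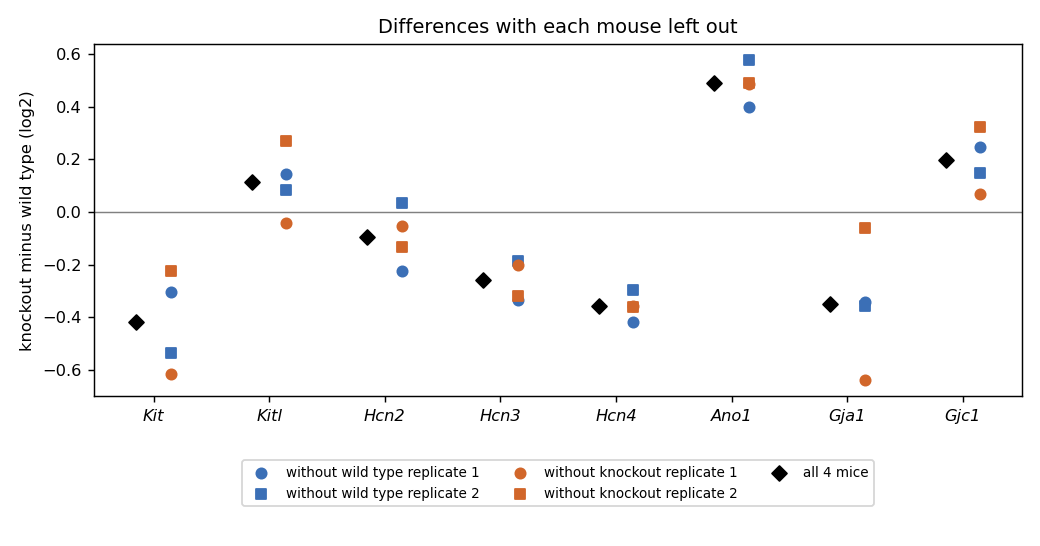
Difference of knockout minus wild type (vertical axis, log2) for each of the 8 genes with all 4 mice (diamonds) and with each mouse left out (circles for replicate 1, squares for replicate 2, blue for a wild type and orange for a knockout mouse). Ano1 stays between 0.40 and 0.58, whereas Gja1 runs from -0.64 to -0.06 and Kit from -0.62 to -0.22; Kitl and Hcn2 cross zero.

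Other connexins and pannexins did not pass with the values as deposited. Of 23 listed genes 19 were tested and 12 lay above background; the test passed 0 (limma, 3 up and 6 down at unadjusted p under 0.05), and the median difference was -0.15, or 0.01 over those above background. Panx2, a pannexin, read 8.20 and 8.31 in wild type against 7.76 and 7.74 in knockout (difference -0.50, limma adjusted p = 0.0679). Panx1, a channel that releases ATP on stretch, read 7.62 and 7.66 against 8.04 and 8.19 (difference 0.48, adjusted p = 0.0755), opposite in sign to Panx2. Gja3 differed by -0.58 (adjusted p = 0.0691). With the arrays centred on their medians, Panx2 and Gja3 passed as lower (limma, adjusted p = 0.0496 for each). The vascular connexins Gja4 and Gja5 overlapped between genotypes, at differences of 0.14 and 0.11 (adjusted p = 0.511 and 0.688). Gjb2 and Gjb6, connexins of epithelia, differed by 0.48 and 0.63 (adjusted p = 0.134 and 0.138), beside the higher urothelial readings given above.

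Proteins that anchor or accompany gap junctions held the largest difference among the 120 tested genes of the lists around the members. Cdh2, N-cadherin, whose adherens junctions lie beside gap junctions in muscle, read 10.14 and 9.92 in wild type against 9.16 and 8.73 in knockout. It fell by 1.08 on the log2 scale (SE 0.17, limma adjusted p = 0.0368), to 0.472 of its wild type level, and passed after a further quantile normalization too (adjusted p = 0.0374). Cdh11, another mesenchymal cadherin, lay the other way, at 8.76 and 8.68 against 9.30 and 9.23 (difference 0.54, adjusted p = 0.0581). Dsp, the desmosomal protein desmoplakin, which urothelium also makes, differed by 0.71 (adjusted p = 0.0737). Tjp1, the scaffold ZO-1 that binds the tail of connexin 43, read 10.65 and 10.69 against 10.89 and 10.93 (adjusted p = 0.221). Of 18 genes listed and 17 tested, 1 fell and no other passed, and the list's median difference was -0.01.

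Calcium and cation channels of pacemaker activity held 2 rises among 20 tested genes of 24 listed, with 18 that did not pass and a median difference of 0.09. Kcnq5, a slowly activating potassium channel that holds smooth muscle near rest, rose by 0.83 (SE 0.12, limma adjusted p = 0.0319). Cacna1d, an L-type calcium channel that opens at low voltage in pacemaker cells, rose by 0.66 (SE 0.13, limma adjusted p = 0.0499), a call lost under 5 settings with all mice and without knockout replicate 2 (adjusted p = 0.0880). Itpr3, a receptor that releases stored calcium, differed by 0.54 (adjusted p = 0.0710). The T-type channels Cacna1g and Cacna1h, linked to pacemaking in other tissues, overlapped between genotypes, at differences of -0.06 and 0.08 (adjusted p = 0.801 and 0.732). The 6 lists held 120 tested genes besides the members; 3 rose and 2 fell, beside the 1.90% and 0.477% of all genes. With the arrays centred on their medians 2 passed as higher and 4 as lower. With either wild type mouse left out no gene on the array passed, these 5 included (limma, with 4253 and 3079 genes at an unadjusted p under 0.05).

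Nerve and kidney genes were read for cells that could add to the members' signal. Of 11 nerve and Schwann cell genes none passed (0 by limma, 2 up and 2 down at unadjusted p under 0.05), and the list mean was 7.60 to 7.69 on the 4 arrays. Erbb3, a receptor of Schwann cells that epithelia also express, differed by 0.75 and Uchl1, a neuronal enzyme, by 0.44 (adjusted p = 0.0581 and 0.118). The kidney list mean was 6.71 and 7.43 in wild type, 8.58 in knockout replicate 1 and 6.84 in knockout replicate 2. Of the 15 kidney genes 13 were higher and none passed (0 by limma, 1 up and 1 down at unadjusted p under 0.05). Cubn, which takes up filtered proteins in the proximal tubule, was at least 1.75-fold higher in knockout, its wild type readings being under the background (adjusted p = 0.0762). Cubn read 7.87 in knockout replicate 1 and 6.90 in knockout replicate 2, and its fitted difference of 1.15 became 0.66 without the first and 1.63 without the second. Nphs1, a podocyte protein, differed by -0.51 (adjusted p = 0.101). Knockout replicate 1, which had the highest kidney readings, also had the higher knockout readings of Kit, Kitl, Gja1, Gjc1 and, by only 0.0018, Ano1. Hcn2, Hcn3 and Hcn4 read lower in it. In wild type, replicate 2 had the higher kidney mean. Kit, Kitl, Gja1 and Gjc1 read lower in that mouse, Gja1 by only 0.015, while Ano1, Hcn2, Hcn3 and Hcn4 read higher. The part of kidney tissue in those values was not tested. With 1 knockout mouse left out, a gene's own spread came from the wild type mice alone. Passes in those fits are therefore not read as calls. Cdh11, Cldn5 and Erbb3 passed with robust eBayes (adjusted p = 0.0451, 0.0421 and 0.0411), Cdh11 with dim genes dropped (0.0493) and Cldn5 with the arrays centred on their medians (0.0483).

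**Figure D5:**
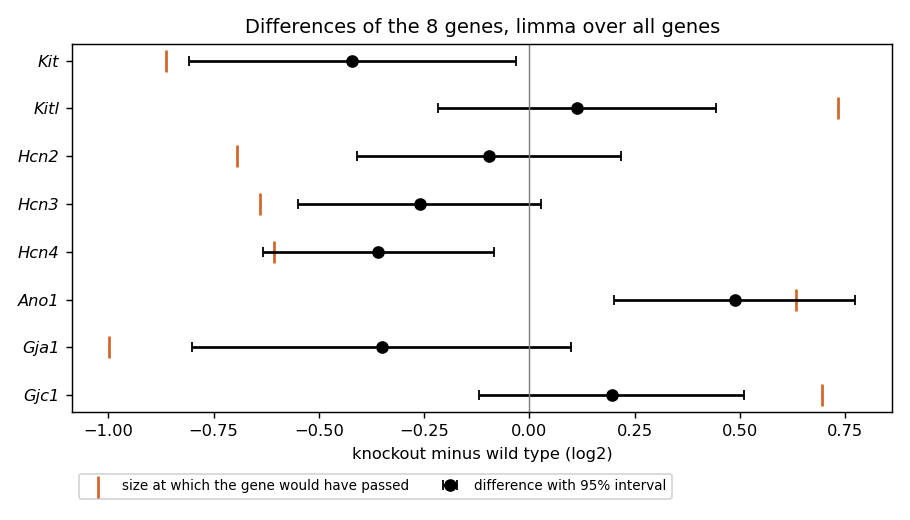
Difference of knockout minus wild type (horizontal axis, log2) for each of the 8 genes, with points for the limma estimate, bars for its unadjusted 95% interval and orange ticks for the difference at which the gene would have passed an adjusted p of 0.05 given its standard error. No point reaches its tick; Ano1, at 0.49, is nearest to its own at 0.63.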

How the data were processed

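Log2 expression was compared between ureters of 2 wild type and 2 knockout mice, 1 Affymetrix whole-transcript array each, from 500 ng of total RNA per the labels' protocols. The authors deposited 1 log2 value per array and probe set. The tools listed, per the submitters' processing notes, are RMA, limma 3.12.1 and R 2.15.0. No genome build for the array is given in the sources used here.

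Of 23309 probe sets, 20728 had 1 gene symbol in the platform annotation, 1174 several and 1407 none; only the first kind was used. The brightest probe set per gene, by its mean over the 4 arrays, left 19296 genes, with no filter. Genotypes were compared by limma 3.58.1 in R 4.3.3 (lmFit, eBayes), with p-values adjusted by Benjamini-Hochberg across all 19296 genes and a threshold of 0.05. Age and kidney state follow genotype and did not enter. The labels call the mice biological replicates. The members, the 15 gene lists and the tests were chosen with earlier results of these data known. Of 263 listed genes 240 were tested. Named are the members, Mir143 and Mir145a, the 3 other genes of smallest p above background in each of the 6 pathway lists, the 2 of smallest p in each of the 9 lists of other cells, and the 3 profiles most like the member of largest difference. Other list genes that are named (Fcer1a, Ms4a2, Mcpt1, Dct, Tyr, Tyrp1, Cpa3, Tpsb2, Hdc, Mcpt4, Ano6, Ano10, Gja4, Gja5, Gjb2, Gjb6, Tjp1, Cacna1g, Cacna1h) were chosen after their values were seen. Intervals are at 95% and unadjusted, and SE is the moderated standard error. Alternatives tried were each mouse left out, other background levels and an adjusted p of 0.10, array weights, unpooled variances, robust eBayes, an intensity trend, all probe sets or their mean per gene, median-centred arrays, quantile normalization, dropping dim genes, and a block for the replicate number.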

Additional observations from a re-analysis of the deposited data

How the results depend on the processing

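With 2 mice per genotype and no replicate beyond them, every count below moves with the spread that the model assigns. Over the 14 settings tried for each member (13 for Hcn3, which the filter on dim genes removed), the signs of Kit, Hcn3, Hcn4, Ano1, Gja1 and Gjc1 did not change. With 1 mouse left out, Kitl ran from -0.043 (without knockout replicate 1, a turned sign) to 0.27, and Hcn2 from -0.22 to 0.034 (without wild type replicate 2, a turned sign). The median difference of all genes went from -0.02 to -0.10 with the arrays centred on their medians. Across genes, the difference of replicate 1 and 2 in wild type correlated at -0.03 with that in knockout. The replicate numbers thus showed no shared effect, but 2 pairs cannot tell whether the mice were paired. With the replicate number as a block, 1922 genes in all, 1 member (Ano1, adjusted p = 0.0491) and 26 pathway genes passed, where without it 459, 0 and 5 did. A further quantile normalization left 204 genes and 2 pathway genes, and robust eBayes gave 902 genes. With no pooling of the variance 0 genes and 0 pathway genes passed, with 2580 and 18 at an unadjusted p under 0.05. Testing every probe set, or array weights, left 3 pathway genes. At an adjusted p of 0.10, 2299 genes, 1 member (Ano1) and 25 pathway genes passed. Leaving out 1 mouse gave 0 to 1744 genes, 0 to 2 members (Kit and Gja1, without knockout replicate 1) and 0 to 17 pathway genes, the lone mouse of a genotype being assumed to vary like the other genotype. The cause of these changes was not tested.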
